A study of Pyrus x bretschneideri with 2 samples.

Results

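The peroxidase genes described here are 6 genes of pear (Pyrus x bretschneideri) that the authors listed as different between wounded fruit given a yeast and wounded fruit given water. They were chosen by their deposited protein description, which had to contain the word peroxidase and none of glutathione, ascorbate or peroxiredoxin. They are 6 of 381 genes in the authors' comparison, and the deposited expression table holds 45022 genes. The 6 are a cationic peroxidase 1-like gene (Pbr015965), a peroxidase A2-like gene (Pbr000687) and 4 peroxidase N1-like genes (Pbr026502, Pbr026503, Pbr026504 and Pbr026505). Only genes in the authors' comparison carry a description, so peroxidase genes outside it were not analysed here, and all 6 were chosen through the same difference that is described below.

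RNA came from the tissue around the wounds of pear fruit. The control fruit received sterile distilled water and the others cells of Meyerozyma guilliermondii, a yeast studied for the biological control of fruit rots, and both were then held for 3 days at 20 °C and at a value of 95% whose quantity the labels do not name. Each group held 1 library, referred to as the water and the yeast library. Whether a library came from 1 fruit or from pooled fruit is not given in the sources used here. The differences below thus lack a replicate check, and no test was made. The authors' adjusted p-values given below likewise rest on 1 library per group and cannot measure the spread between fruit.

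Class III peroxidases are secreted haem enzymes of plants, encoded by large gene families. They use hydrogen peroxide to oxidise phenolic compounds, which couples monolignols into lignin and cross-links cell wall proteins and polysaccharides, and they can also form reactive oxygen. In plant tissues they are known from wound healing, suberised and lignified barriers and defence against pathogens.

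Of the 6 peroxidase genes, the authors called 1 higher and 5 lower in the yeast library. Their calls over the 45022 genes are 0.318% higher and 0.529% lower, and of all called genes 62.5% were lower. The 6 were taken from those calls, so nothing is read from these shares. The cationic peroxidase 1-like gene was a small part of the summed level of the 6 with water and nearly all of it with the yeast, while the peroxidase A2-like gene and the peroxidase N1-like genes were close to or at 0 FPKM with the yeast. FPKM counts fragments per kilobase, relative to the size of the library, so levels of different genes are per length and can be set side by side. The 6 genes summed to 41.2 FPKM in the water library and 31.0 FPKM in the yeast library. Of that sum, the cationic peroxidase 1-like gene held 4.82% with water against 98.3% with the yeast, and the 5 lower genes together had 39.2 FPKM with water and 0.530 FPKM with the yeast. In these bulk samples, fewer cells of a type and less RNA per cell cannot be told apart.

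**Figure D1:**
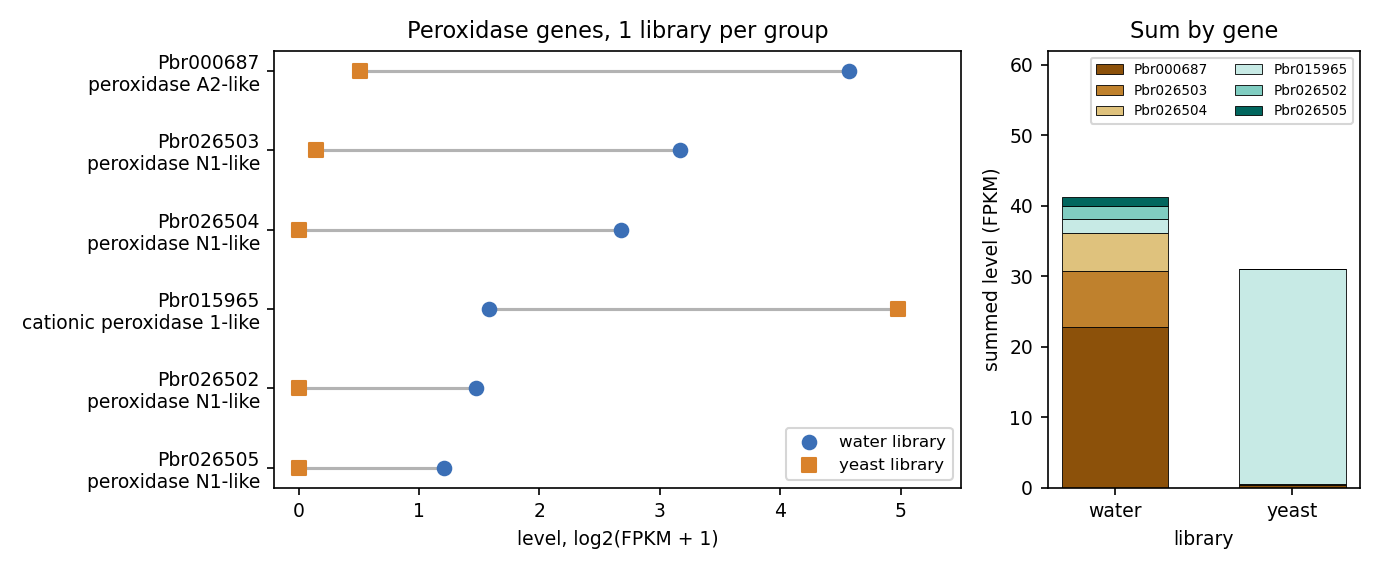
Left, level of each peroxidase gene as log2(FPKM + 1) in the water library (circles) and the yeast library (squares), ordered by the level with water. Right, the same levels stacked as FPKM. Pbr015965 is the one gene of the 6 with the square to the right, and it makes up 98.3% of the summed 31.0 FPKM of the yeast library.

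Pbr015965 stood at 1.99 FPKM in the water library and 30.5 FPKM in the yeast library. Its closest curated protein is cationic peroxidase 1 of peanut (PNC1), a secreted peroxidase of that plant. The FPKM values differ 15.4-fold, and on the log2(FPKM + 1) scale the yeast library was higher by 3.40. That difference was the 21st highest of the 22603 genes that reached 1 FPKM in at least 1 library. With water, 18.2% of those genes had a lower level than Pbr015965, and with the yeast 81.1% did, so it lay in the low part of the range of levels in one library and in the upper part in the other. The authors' deposited table gives it a log2 fold change of 3.89 with an adjusted p of 3.37e-05, the 60th highest of its 381 genes.

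Pbr000687 was the most abundant peroxidase gene of the 6 with water, at 22.8 FPKM, and stood at 0.425 FPKM with the yeast. Its description is peroxidase A2-like, and its closest curated protein is a sweet potato peroxidase. The FPKM values differ 53.7-fold. On the log2(FPKM + 1) scale the log2 ratio of yeast to water was -4.06, the 20th lowest of the 22603 genes. By the authors' log2 fold changes, Pbr000687 ranked 98th lowest of their 381 genes, the nearest to 0 of the 5 lower peroxidase genes. It alone of the 6 also carries the annotation term for hydrogen peroxide catabolism. The authors' deposited table gives a log2 fold change of -5.64 with an adjusted p of 6.83e-09.

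The 4 peroxidase N1-like genes have consecutive identifiers and share their closest curated protein, peroxidase N1 of tobacco. Pbr026503 stood at 7.96 FPKM with water and 0.105 FPKM with the yeast. Pbr026504 stood at 5.39 FPKM with water and was listed at 0 with the yeast. Pbr026502 stood at 1.77 FPKM and Pbr026505 at 1.31 FPKM with water, and both were listed at 0 with the yeast. So all 4 were detected with water, over a 6.08-fold range, and 1 of the 4 had a value above 0 with the yeast. Together they summed to 16.4 FPKM with water and 0.105 FPKM with the yeast. Near-identical copies may share reads. Since the sources used here do not give how such reads were assigned, the division among the 4 is uncertain. Their sum may also depend on it, if shared reads were dropped or counted at more than 1 gene.

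A value listed at 0 in an FPKM table can be a failed estimate, so no fold without a pseudocount is given for those 3 genes. The log2(FPKM + 1) ratios, sums, counts and medians given here take such a value as a true 0, and share that limit. On the log2(FPKM + 1) scale, which understates differences of low genes, the log2 ratio of yeast to water was -3.02 for Pbr026503 and -2.68 for Pbr026504. It was nearer 0 for the less abundant pair, at -1.47 for Pbr026502 and -1.21 for Pbr026505. In the authors' deposited table the less abundant pair instead has the values farther from 0, with log2 fold changes of -9.27 for Pbr026502, -8.93 for Pbr026505, -7.56 for Pbr026504 and -5.92 for Pbr026503. The adjusted p-values in the authors' deposited table were 5.2e-06 and 2.68e-05 for the less abundant pair, 1.6e-08 for Pbr026504 and 6.44e-08 for Pbr026503. The less abundant pair thus has both the log2 fold changes farther from 0 and the larger adjusted p-values. Between Pbr026504 and Pbr026503, the less abundant Pbr026504 has the value farther from 0 but the smaller adjusted p-value. The difference between the authors' log2 value and that of the FPKM values without a pseudocount was 0.33 for Pbr026503, 0.10 for Pbr000687 and -0.05 for Pbr015965, and so the deposited fold changes are not exactly the ratios of the deposited FPKM values.

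Among all genes, a value of 0 with the yeast was uncommon at these levels. The 3 genes listed at 0 were taken from the 238 genes that the authors called lower. Of those 238, 84 (35.3%) were listed at 0 with the yeast. Of the 21484 genes with at least 1 FPKM with water, 145 (0.675%) were listed at 0 with the yeast, and the authors called 50 of these 145. Between the water levels of Pbr026505 and Pbr026504 lay 7020 genes, of which 90 (1.28%) were listed at 0 with the yeast, the 3 peroxidase N1-like genes among them, and 38 of the 90 were called. In the opposite direction, 102 genes with at least 1 FPKM with the yeast were listed at 0 with water.

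In order of level, the water library had Pbr000687 first, followed by Pbr026503, Pbr026504, Pbr015965, Pbr026502 and Pbr026505. The yeast library had Pbr015965 first, then Pbr000687 and Pbr026503, with the other 3 listed at 0. The median level of these 22603 genes was 7.57 FPKM with water and 7.58 FPKM with the yeast. With water, 2 of the 6 peroxidase genes were above that median, Pbr000687 and Pbr026503, and with the yeast 1 was, Pbr015965. Without replicates, it is not known which neighbours in these orders differ beyond the spread between fruit.

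All 6 peroxidase genes passed the filter of at least 1 FPKM in either library. By a 2-fold rule on the log2(FPKM + 1) scale 1 was higher and 5 were lower, where 3.32% of the 22603 genes were higher and 3% were lower. The median log2 ratio of the 6 was -2.07 and that of all 22603 genes was 0.01. At 4-fold, 1 peroxidase gene was higher (0.637% of all genes) and 3 were lower (0.858% of all genes), which left out Pbr026502 and Pbr026505. Genes in the authors' comparison make up 0.846% of the 45022 genes of the expression table, and of these 62.5% were lower with the yeast. Since the 6 were taken from those calls, their shares are a description of the genes and nothing is read from them against the background.

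**Figure D2:**
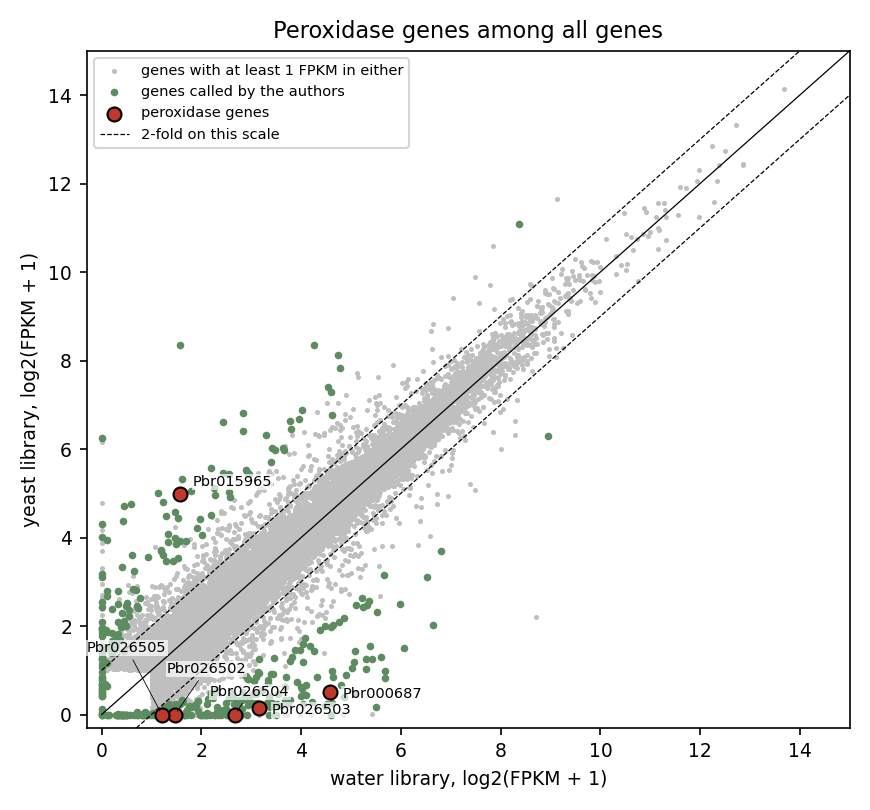
Level as log2(FPKM + 1) of each gene that reached 1 FPKM in at least 1 library, water library on the x axis and yeast library on the y axis, with the genes called by the authors and the 6 peroxidase genes drawn over them. The solid line marks equal levels and the dashed lines a 2-fold difference on this scale. Pbr015965 lies above the upper dashed line and the other 5 lie below the lower one, with 3 on the x axis at 0 in the yeast library.

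The other annotation columns, which the choice of genes did not use, describe the 6 largely alike. They annotate the same genes, so they are no independent support for the choice. All 6 carry the terms for peroxidase activity, haem binding, the extracellular region and the response to oxidative stress, and all 6 have the peroxidase domain of Pfam. No other gene in the authors' comparison carries the peroxidase activity term or that domain. The 4 peroxidase N1-like genes also have a KEGG entry for peroxidase, matched through a castor bean protein described as a cationic peroxidase precursor, which Pbr015965 and Pbr000687 lack. The best protein hit of each of the 6 is from pear itself.

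Of the genes numbered near the peroxidase genes, the 4 with at least 1 FPKM in either library differed by less than 2-fold. Consecutive identifiers were taken as they stand in the files, and no coordinates were used. Within 3 numbers of a peroxidase gene there were 18 other genes. Of these, 14 were listed at 0 in both libraries and so could show no difference, and 4 had at least 1 FPKM. The authors called 0 of the 18, beside 0.846% of all 45022 genes, and nothing is read from that 0. Uncalled genes carry no description, so whether any of the 18 is a peroxidase gene is not known. Pbr026501, the number before the peroxidase N1-like run, stood at 28.6 FPKM with water and 35.1 FPKM with the yeast. After the run, Pbr026506 was listed at 0 in both libraries, Pbr026507 stood at 30.5 FPKM and 32.1 FPKM, and Pbr026508 stood at 12.2 FPKM and 11.7 FPKM. The levels on either side of the run thus differed by less than 2-fold while those within it were near 0 or at 0 with the yeast. Near Pbr000687, Pbr000684 stood at 10.1 FPKM with water and 8.29 FPKM with the yeast, and all 6 other genes around Pbr015965 were listed at 0 in both libraries. Among all called genes with Pbr identifiers, runs of at least 3 consecutive numbers called in the same direction occurred 2 times, once for the 4 peroxidase N1-like genes and once for 5 genes of which the first is described as flavonol synthase 3-like.

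**Figure D3:**
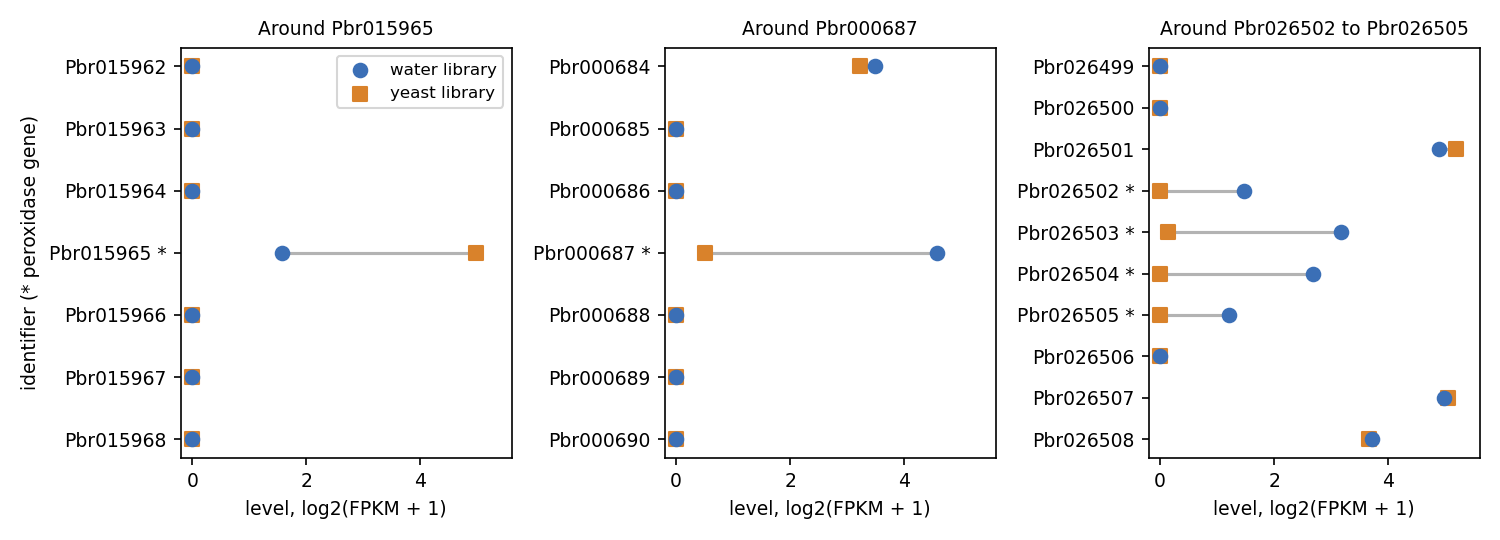
Level as log2(FPKM + 1) of the genes within 3 identifier numbers of each peroxidase gene, in the water library (circles) and the yeast library (squares). Asterisks mark the peroxidase genes described here. The 4 neighbours with at least 1 FPKM have both symbols close together, and the 14 listed at 0 in both libraries have both symbols at 0.

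The called genes with levels most like those of Pbr015965, by distance on the log2(FPKM + 1) scale over the 2 libraries, were a BURP domain-containing protein 17-like gene (Pbr017157, 2.48 FPKM with water and 32.0 FPKM with the yeast), XLOC_042464 (2.04 and 39.0 FPKM) and Pbr040931 (1.35 and 26.9 FPKM), the last described as uncharacterized. Those most like Pbr000687 were a CYP749A22-like cytochrome P450 gene (Pbr030004, 23.7 FPKM with water and 0.193 FPKM with the yeast), a cytokinin hydroxylase-like gene (Pbr031328, 22.0 and 0.187 FPKM) and the uncharacterized gene Pbr010833 (26.9 and 0.581 FPKM). The likeness rests on 2 values per gene.

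Peroxidases of this class can act on products of the monolignol pathway, and 10 genes of its list were called, 9 higher and 1 lower with the yeast. Of all called genes 37.5% were higher, and the number of uncalled genes of the pathway is not known here. The most different of them on the log2(FPKM + 1) scale were Pbr026289 and Pbr022425. Pbr026289, a cinnamyl alcohol dehydrogenase 1 gene for the last step to monolignols, stood at 0.342 FPKM with water and 19.7 FPKM with the yeast. Pbr022425, a shikimate O-hydroxycinnamoyltransferase-like gene of an earlier step, stood at 8.75 FPKM and 78.3 FPKM. On this scale, which understates differences of low genes, a 4-coumarate--CoA ligase 2-like gene was the least different of the higher ones (Pbr001283, 0.412 and 3.00 FPKM). Its enzyme activates the phenolic acids. The order differs in the authors' log2 fold changes. There the smallest of the higher ones was 2.66 for Pbr038709, against 2.93 for Pbr001283, and Pbr029428 had 5.29 against 3.20 for Pbr022425. The lower gene, Pbr025883, is described as caffeic acid 3-O-methyltransferase-like, while its closest curated protein is an anthranilate N-methyltransferase of common rue. It stood at 49.6 FPKM with water and 7.89 FPKM with the yeast. The median log2 ratio of the 10 was 2.19, and that of the 6 peroxidase genes was -2.07. Thus Pbr015965 was on the side of 9 of the 10 monolignol genes, and the other 5 peroxidase genes were on the other side. Both sets hold called genes alone, so each gene had to fall on a side, and a link between the sets was not tested.

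Other enzymes that oxidise phenolic compounds had 6 called genes, laccases and polyphenol oxidases, whose directions stand beside 62.5% lower among all called genes. Laccases, which couple monolignols with oxygen in place of hydrogen peroxide, had 4 called genes, 1 higher and 3 lower. Laccase-15-like was higher (Pbr013454, 0.359 FPKM with water and 1.73 FPKM with the yeast). The laccase-7-like genes were lower, namely Pbr035929 (28.7 and 0.852 FPKM), Pbr012397 (7.92 and 1.39 FPKM) and XLOC_007843 (2.26 and 0.0697 FPKM). No dirigent protein gene was among the 4. Polyphenol oxidase genes, whose enzymes brown cut tissue, were 0 higher and 2 lower (Pbr000321, 495 and 77.8 FPKM, and XLOC_029389, 5.34 FPKM and listed at 0).

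Beside 37.5% higher among all called genes, the list of enzymes that form hydrogen peroxide, the peroxidases' substrate, had 2 called genes, both higher. They are described as reticuline oxidase-like (for Pbr042050 0.0830 FPKM with water against 5.44 FPKM with the yeast, for Pbr042044 0.641 against 4.46 FPKM) and belong to a family of flavoprotein oxidases that release hydrogen peroxide. No respiratory burst oxidase, superoxide dismutase or germin gene was among the called genes of that list. The list of other enzymes that remove peroxide (catalase, ascorbate peroxidase, glutathione peroxidase, peroxiredoxin) had 0 called genes, and its uncalled members carry no description. Glutathione S-transferase U8-like, from a family that detoxifies with glutathione, was lower (Pbr020346, 7.52 and 0.802 FPKM).

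The suberin list caught 2 genes, both higher, but both are described as UDP-glycosyltransferase 86A1-like and not as suberin enzymes (for Pbr024936 0.0797 FPKM with water against 1.24 FPKM with the yeast, for Pbr020554 0.0262 against 0.552 FPKM). Of all called genes 37.5% were higher and 62.5% lower. The list of wall structural proteins, which peroxidases can cross-link, had 1 higher and 1 lower. The lower one is an extensin-like gene (XLOC_003974, 1.42 FPKM and listed at 0), and the higher one, Pbr000076, matched through its curated hit to a proline-rich receptor-like kinase (listed at 0 with water and 18.9 FPKM with the yeast).

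**Figure D4:**
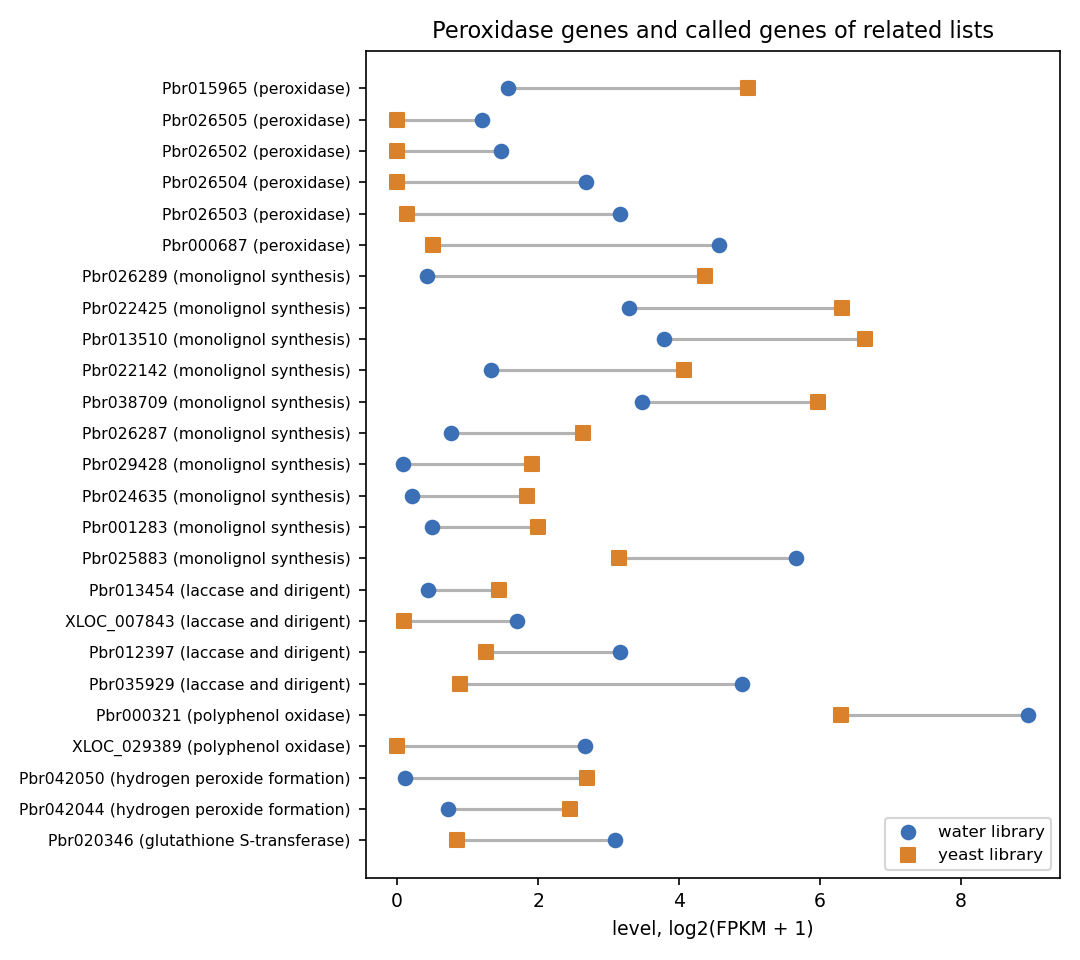
Level as log2(FPKM + 1) of the 6 peroxidase genes and of the called genes of 5 related lists, in the water library (circles) and the yeast library (squares). In the monolignol list 9 of 10 genes have the square to the right, and of the peroxidase genes Pbr015965 alone does.

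Markers of tissue layers could be read among called genes alone. The epidermis and cuticle list had 3 called genes, all lower with the yeast, beside 62.5% lower among all called genes. All 3 are described as EP1-like, with levels of 17.6 to 98.9 FPKM with water and 0.224 to 7.68 FPKM with the yeast. The photosynthesis list and the list of xylem and phloem markers had 0 called genes each. The list of fungal hits gave Pbr024253, described as a probable transposable element, which stood at 0.466 FPKM with water and 4.13 FPKM with the yeast. The part of tissue makeup in the peroxidase differences was not tested.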

How the data were processed

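Per the labels' protocols, RNA from tissue around the wounds was made into Illumina TruSeq libraries. The authors deposited FPKM values per gene for both libraries, and a comparison table that gives, per the file headers, a log2 fold change of yeast over water and an adjusted p-value (FDR) for 381 called genes. Per the submitters' processing notes, Bowtie 0.12.2 was a tool used. The sources used here do not name the counter, build, annotation or comparison tool.

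Columns were assigned through sample descriptions. Ratios were log2((yeast + 1)/(water + 1)), with a pseudocount of 1, for the genes that reached 1 FPKM in at least 1 library. A 2-fold rule stood in for a test. Fold values were taken from FPKM without a pseudocount, and only where both libraries were above 0. FPKM totals were 692635 (water) and 748043 (yeast). Read totals were not used. The commonest log2 ratio without a pseudocount among 2985 low genes was 0.069, shared by 56 of them. Those 56 were taken to have equal read counts, which put the depth of the water library at 1.05 times that of the yeast library.

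The members and lists were chosen with earlier results of these data known. List patterns were matched to the deposited descriptions (best hit, Swiss-Prot, Pfam) of called genes. Named genes were all 6 peroxidase genes, genes within 3 identifier numbers, the 3 called genes nearest in level to the highest and lowest peroxidase gene, and the 2 highest and 2 lowest called genes per list. All others were chosen after seeing their values. Tools were Python 3.11.15, pandas 2.3.3, numpy 2.4.6 and matplotlib 3.10.9. No coordinates or sequences were used here.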

Additional observations from a re-analysis of the deposited data

How the results depend on the processing

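With 1 library per group no replicate could be left out. No paired analysis was possible because each group holds 1 library. Alternatives were pseudocounts of 0.1 and 0.5, no filter, at least 5 FPKM, equal FPKM totals and a median ratio set to 0. None of these could turn the direction of differences of this size, so they bear on the sizes alone. The log2 ratio of Pbr015965 ran from 3.31 to 3.88, of Pbr000687 from -5.45 to -4.06, of Pbr026503 from -5.30 to -3.02, of Pbr026504 from -5.78 to -2.68, of Pbr026502 from -4.23 to -1.47 and of Pbr026505 from -3.82 to -1.21. With a pseudocount of 0.1, Pbr026504 was farther from 0 than Pbr026503. The count of 5 lower genes became 3 at 5 FPKM, 3 at 4-fold, and 2 with the peroxidase N1-like genes summed as 1, an alternative chosen after seeing the data. The median of the 6 was -2.07, and was -4.76 with a pseudocount of 0.1, -2.87 with 0.5 and -2.12 with equal totals. At 5 FPKM the median was -2.85, over the 4 peroxidase genes that passed. With the peroxidase N1-like genes summed as 1 it was -3.98, over that sum, Pbr015965 and Pbr000687. Over all genes, 750 higher and 678 lower became 1347 and 1100 with a pseudocount of 0.1, 470 and 382 at 5 FPKM, and 144 and 194 at 4-fold. With equal FPKM totals they were 643 and 765, which turned the balance to more genes lower. Matching any description column instead of the best hit gave the same 6 genes. Depth limits the values below 1 FPKM with the yeast, whose counting error is unknown.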

Other observations

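One further gene in the authors' comparison carries the term for the response to oxidative stress. It is Pbr031383, described as the serine/threonine-protein kinase OXI1-like, a kinase known in Arabidopsis for its part in signalling by hydrogen peroxide. It stood at 5.52 FPKM with water and 0.183 FPKM with the yeast, on the side of the 5 lower peroxidase genes. With it, 7 called genes carry that term, 1 higher and 6 lower with the yeast. The haem binding term is carried by 19 called genes, 3 higher and 16 lower, and the extracellular region term by 13, 3 higher and 10 lower, with the 6 peroxidase genes included in both counts, beside 62.5% lower among all 381 called genes. This gene and these terms were chosen after seeing their values.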
